A study of Drosophila melanogaster with 3 samples.

Results

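The pair-rule genes of Drosophila melanogaster were examined for binding of the homeotic transcription factor Labial in whole embryos. The 9 genes were eve, ftz, hry (h in older usage), run, odd, prd, slp1, slp2 and opa, taken from a list by their names in the Ensembl annotation, out of 13945 protein-coding genes on the 6 chromosome arms. Each gene was taken with 10 kb to each side to include its stripe enhancers, a stretch called its window here. Chromatin immunoprecipitation and sequencing had been carried out on embryos aged 0 to 24 h, males and females together, from 1 transgenic line (lab-GFP) in which Labial carries GFP at its C-terminal end, with an antibody against GFP. There was 1 group with 3 biological replicates, and all of them carried the fusion. The sequence that drives the fusion is not given in the sources used here, and no sample without it was analysed here. Binding of the fusion and any enrichment that would appear without it cannot be told apart. Strong binding in few cells cannot be told apart from weak binding in many.

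Pair-rule genes divide the early embryo into segments. Most are expressed in stripes with a periodicity of alternate segments, and nearly all encode transcription factors that act on one another and on the segment polarity genes. eve, hry, run, ftz and odd read the gradients of the maternal and gap factors through separate stripe enhancers or through each other, while prd, slp1 and slp2 are switched on later, largely by the earlier pair-rule factors. opa encodes a zinc finger factor of the Zic type that is expressed in a broad band rather than in stripes and changes how the others respond. Labial acts in the head and the midgut, where it binds DNA with its cofactor Exd. Because the embryos spanned the whole of embryogenesis, the hours in which the stripes form were only part of the collection.

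Peaks were measured as deposited lists, ranked by peak signal. Each replicate had a list of 30000 peaks, the pooled reads had another 30000, and the optimal list after the irreproducible discovery rate (IDR) threshold held the 10160 pooled peaks of highest signal. Read depth is unknown. The position of a peak is that of its summit, and the build is dm6.

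The pair-rule windows held 8 IDR summits, 5 of them around hry. One summit lay between slp1 and slp2, 1 beyond the 3' end of odd and 1 in the window of prd but at the start site of another gene. The windows of eve, ftz, run and opa held none. Of the 9 genes, 5 had at least 1 IDR summit in the window, against 74.1% of all protein-coding genes, and 72.8% of those no longer than opa, the longest member. In the replicates' own lists, shortened to the 10160 strongest peaks, 5, 5 and 4 members had a summit. The shares of all protein-coding genes in those lists were 76.9%, 74.2% and 74.9%. The members were not the same ones throughout. Replicate 1 had a summit at ftz and none at prd, and replicate 3 had none at odd. A summit within 500 bp of a start site of the gene, called a promoter peak here, was found at 1 of the 9, hry, in the IDR list and in each replicate. In the IDR list 25.5% of all protein-coding genes had one, and 23.1% of those no longer than opa. In the replicates' shortened lists the share of all genes was 28.2%, 24.7% and 26.5%.

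**Figure D1:**
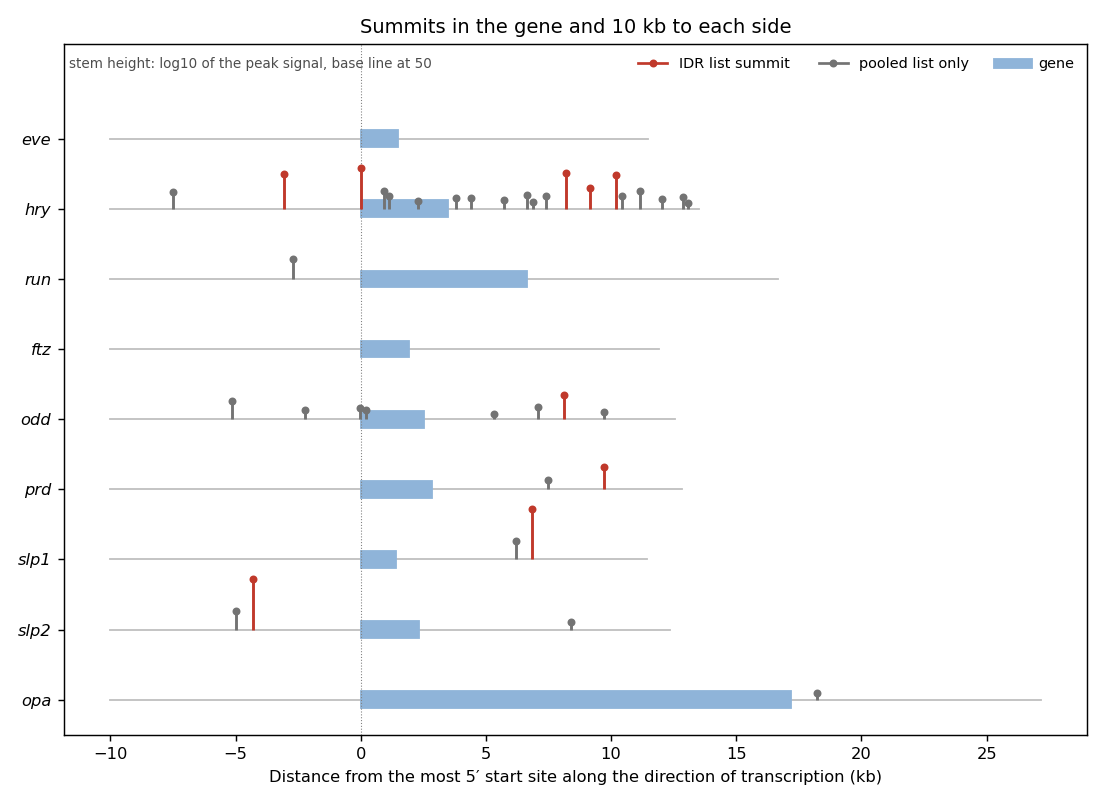
Summits in the windows of the 9 pair-rule genes. The x axis is the distance in kb from the most 5' start site along the direction of transcription, stems are summits with heights on a log10 scale of peak signal that starts at 50, and bars are genes. The row of hry carries 20 summits of the pooled list, and those of eve and ftz carry none.

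The sequences around the summits show what lay under the peaks. Each run below is 201 bases centred on an IDR summit, on the plus strand of dm6, with matches to the 8 motifs searched in capitals. The first is the site upstream of hry at chr3L:8672605-8672805, with 1 GATA word. The second is the most distal hry site at chr3L:8685871-8686071, with 1 homeodomain core. The third is the strongest peak of all the windows, between slp1 and slp2 at chr2L:3832420-3832620. The fourth is the site beyond odd at chr2L:3598546-3598746, with 1 GATA word read on the minus strand. The fifth lies in the prd window at chr2L:12076025-12076225 and covers the start site of CG14947.
hry upstream: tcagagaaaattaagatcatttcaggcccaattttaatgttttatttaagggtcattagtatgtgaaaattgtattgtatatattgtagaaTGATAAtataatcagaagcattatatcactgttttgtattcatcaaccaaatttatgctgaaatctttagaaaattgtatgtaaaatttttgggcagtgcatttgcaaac
hry distal: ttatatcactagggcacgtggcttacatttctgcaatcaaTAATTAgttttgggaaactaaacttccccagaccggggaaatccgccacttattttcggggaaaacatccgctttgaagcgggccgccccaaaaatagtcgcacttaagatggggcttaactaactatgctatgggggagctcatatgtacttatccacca
slp1 and slp2: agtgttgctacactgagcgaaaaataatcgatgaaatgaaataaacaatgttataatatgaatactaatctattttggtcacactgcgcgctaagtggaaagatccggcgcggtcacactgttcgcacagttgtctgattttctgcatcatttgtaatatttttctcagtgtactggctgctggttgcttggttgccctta
odd: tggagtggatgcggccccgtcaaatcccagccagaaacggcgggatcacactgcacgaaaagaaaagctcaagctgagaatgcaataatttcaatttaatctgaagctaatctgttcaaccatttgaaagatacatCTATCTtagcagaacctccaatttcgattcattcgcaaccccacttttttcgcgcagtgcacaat
prd window: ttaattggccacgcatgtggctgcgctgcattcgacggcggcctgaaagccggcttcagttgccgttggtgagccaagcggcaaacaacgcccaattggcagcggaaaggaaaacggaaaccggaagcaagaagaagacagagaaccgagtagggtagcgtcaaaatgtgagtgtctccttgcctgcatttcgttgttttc

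The promoters of hry, ftz, odd and slp1 shared 1 of the 8 motifs searched. It was the only motif found in the promoters of more than 1 member. The count over promoters was not planned, and members and motifs were chosen with earlier results of these data known, so no test was run. CAGGTAG, the site of Zelda, the factor that opens early embryonic enhancers, occurred within 250 bases before and 50 bases after the most 5' start site in 4 of the 9 members and in 1.64% of all 13945 such promoter stretches. It is printed in capitals below, in the direction of transcription, and its first base lay 121 bases upstream of the start site in hry, 206 in ftz, 142 in odd and 140 in slp1, where it reads as its reverse complement. The stretches are chr3L:8675509-8675808 for hry, chr3R:6864074-6864373 for ftz, chr2L:3606707-3607006 for odd on the minus strand and chr2L:3825425-3825724 for slp1. Of these 4 promoters, that of hry alone had a peak in the IDR list.
hry: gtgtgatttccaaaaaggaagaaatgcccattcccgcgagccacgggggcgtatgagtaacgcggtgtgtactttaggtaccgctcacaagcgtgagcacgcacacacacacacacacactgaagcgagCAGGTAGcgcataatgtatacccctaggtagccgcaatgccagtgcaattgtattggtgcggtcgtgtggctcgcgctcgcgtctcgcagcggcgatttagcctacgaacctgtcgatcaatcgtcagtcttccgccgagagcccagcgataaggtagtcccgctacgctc
ftz: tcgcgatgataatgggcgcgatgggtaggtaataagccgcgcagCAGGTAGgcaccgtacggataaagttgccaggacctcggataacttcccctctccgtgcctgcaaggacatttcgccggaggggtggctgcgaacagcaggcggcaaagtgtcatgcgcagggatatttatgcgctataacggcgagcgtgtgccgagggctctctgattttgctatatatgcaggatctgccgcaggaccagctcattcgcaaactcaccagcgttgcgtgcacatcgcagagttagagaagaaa
odd: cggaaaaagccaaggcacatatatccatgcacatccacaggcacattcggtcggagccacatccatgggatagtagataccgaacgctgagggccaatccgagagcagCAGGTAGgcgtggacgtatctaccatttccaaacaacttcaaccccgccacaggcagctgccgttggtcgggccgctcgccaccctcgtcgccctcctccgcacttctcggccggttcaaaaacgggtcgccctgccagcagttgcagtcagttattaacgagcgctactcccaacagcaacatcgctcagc
slp1: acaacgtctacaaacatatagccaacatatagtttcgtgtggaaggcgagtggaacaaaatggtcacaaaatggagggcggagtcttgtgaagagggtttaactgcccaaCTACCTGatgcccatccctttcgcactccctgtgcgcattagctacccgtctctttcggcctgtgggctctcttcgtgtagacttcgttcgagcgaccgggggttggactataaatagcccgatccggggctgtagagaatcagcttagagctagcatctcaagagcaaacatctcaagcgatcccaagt

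hry (FBgn0001168, chr3L:8675759-8679253) encodes a bHLH repressor that works with the corepressor Groucho. Its window held 5 IDR summits, and the replicates' lists of equal length held 5, 5 and 8, a mean of 6.0 ± 1.73 (SD, n = 3). At the mean summit density of arm 3L, 78.7 per Mb, the window would hold 1.85, so its count was 2.7 times the arm mean in the IDR list and 2.76, 2.69 and 4.36 times in the replicates. Each replicate lay above the arm mean. The exact 95% Poisson interval of the count, which covers counting error only, ran from 1.62 to 11.7 and included 1.85. In the whole pooled list hry had 20 summits where the arm mean gave 5.63, with an interval from 12.2 to 30.9, and the replicates' whole lists had 19, 21 and 21. Of all protein-coding genes, 18.2% had at least 5 IDR summits in their windows and 3.41% had at least 20 summits of the pooled list.

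The strongest hry peak lay on its promoter at chr3L:8675522-8675916, its summit 1 bp upstream of the gene, and had rank 1795 in the pooled list (signal 715.5). It ranked 2829, 1804 and 1499 in replicates 1, 2 and 3. Another peak, at chr3L:8672660-8672808, lay 3054 bp upstream with rank 3136 and replicate ranks of 3128, 3658 and 3507. The ranks of this upstream site stayed close together in the 3 replicates.

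The other 3 hry summits lay within 1997 bp of each other in intergenic sequence beyond the 3' end, 8019, 8956 and 10016 bp downstream of the nearer start site. The first, at chr3L:8683894-8684071, ranked 3022 in the pooled list and 2852, 4242 and 2368 in the replicates. The last, at chr3L:8685857-8686084, ranked 3466, and 3728, 4128 and 2885 in the replicates. The one between them, at chr3L:8684699-8685122, was the weakest of the 8, with a signal of 198.5 and rank 10129, close to the end of the IDR list at 10160. It ranked 12363 and 16663 in replicates 1 and 2 and 7287 in replicate 3, so replicate 3 alone placed it among its 10160 strongest. None of the 5 summits lay in the transcribed part of hry, and hry was the nearest protein-coding gene of each. With 20 kb to each side the count at hry rose from 5 to 13.

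The 15 weaker summits of the pooled list at hry lay between 7506 bp upstream and 12883 bp downstream. Of these, 2 were in an intron of hry (ranks 12884 and 18179) and 1 was in its coding sequence, at rank 24706 with no partner within 100 bp in any replicate's list. Among them the summits 7194, 10219 and 10964 bp downstream had a partner in all 3 whole replicate lists. The genes whose strongest promoter peak had replicate ranks nearest to those of hry, by the summed absolute log2 ratio of ranks over the 3 replicates, were Cox17 (0.411), and CG4572 and CG4686 (0.469 each, with the same ranks of 3012, 2028 and 1734).

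**Figure D2:**
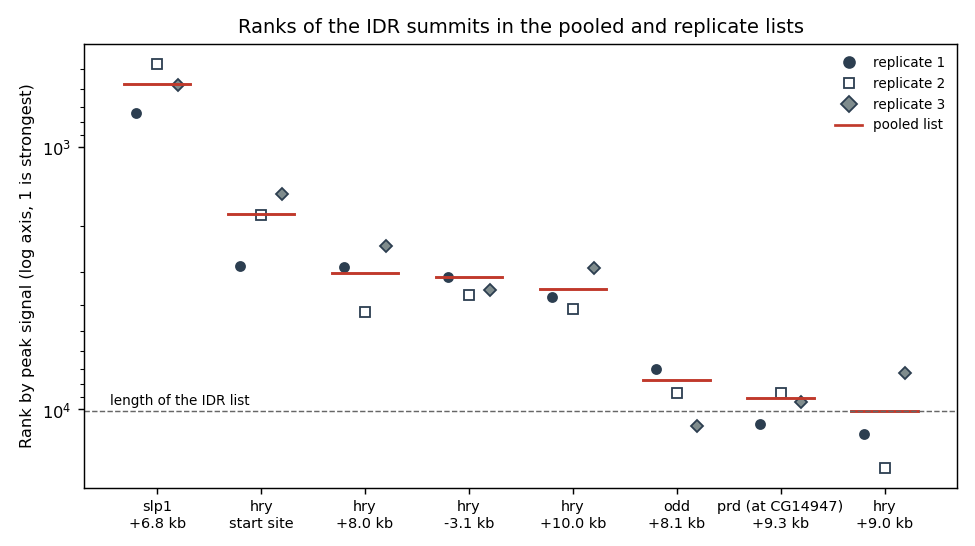
Rank by peak signal of the 8 IDR summits, on a log axis with the strongest at the top. Symbols are the 3 replicates, red lines the pooled list and the dashed line the length of the IDR list. The slp1 to slp2 summit stands highest at rank 571, and the odd, prd and weakest hry summits have symbols on both sides of the dashed line.

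eve (FBgn0000606, chr2R:9979319-9980795) encodes a homeodomain repressor whose separate stripe enhancers lie upstream and downstream of the gene, a textbook case of modular control. Its window of 21.5 kb held no IDR summit, no summit of the pooled list and none in any of the 3 whole replicate lists. At the mean density of arm 2R the window would hold 1.54 IDR summits and 4.4 summits of the pooled list. A count of 0 has an exact 95% Poisson upper limit of 3.69, which lies above the first of these and below the second. Of the 9 members, 2 (eve and ftz) had no summit of the pooled list in the window, against 11.9% of all protein-coding genes. The window also contains start sites of TER94 and CG12134. The nearest summit of the pooled list, also an IDR summit, lay 19392 bp upstream of the eve start site, and the nearest downstream in the pooled list 23412 bp away. The reference sequence of the window held 0 unknown bases, and 10.3% of it was marked as repeat, the lowest share among the 9 windows, where the highest was 19.0%. How well reads map in the window was not tested.

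run (FBgn0003300, chrX:20690670-20697321) encodes the founding Runt-domain factor of the Runx family. Its window held no IDR summit and 1 summit of the pooled list, 2692 bp upstream with a signal of 179.3 and rank 11325. This rank is past the end of the IDR list at 10160. The peak ranked 13506, 12458 and 12461 in the replicates. Each replicate thus held it in its whole list, but none among its 10160 strongest. Those lists had 1, 3 and 3 summits in the window. The arm mean gave 2.02 IDR summits and 5.74 summits of the pooled list, and the nearest IDR summit was 33848 bp away.

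ftz (FBgn0001077, chr3R:6864324-6866244) encodes a homeodomain factor and lies within the Antennapedia complex, a Hox cluster, where it has taken on a pair-rule role. Its window held no summit of the IDR list or of the pooled list. Replicate 1 had 1 peak there, 5189 bp downstream of the start site at rank 9128, replicate 3 had a peak 5195 bp downstream at rank 16273 and another 7461 bp downstream at rank 22196, and replicate 2 had none. The peaks at 5189 and 5195 bp are 1 site to within a few bases, present in 2 of the 3 replicates. The nearest summits of the pooled list lay 45294 bp upstream and 17623 bp downstream, a stretch of 62.9 kb without one.

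odd (FBgn0002985, chr2L:3604224-3606756) encodes a zinc finger repressor. Its only IDR peak lay beyond the 3' end at chr2L:3598434-3598857, 8110 bp downstream of the start site, at rank 7745 (signal 251.8). Its ranks were 7009, 8661 and 11562 in replicates 1, 2 and 3, so it fell outside the 10160 strongest peaks of replicate 3. The pooled list had 8 summits in the window, above the 5.53 at the arm mean, and the replicates' whole lists had 7, 6 and 6. Of these 8, 2 lay within 500 bp of the start site at ranks 19240 and 21971, and each had a partner within 100 bp in replicate 2 alone. Of all protein-coding genes, 30.8% had at least 8 summits of the pooled list in the window and 74.1% at least 1 IDR summit. The arm mean gave 1.86 IDR summits at odd, inside the interval of the count of 1, from 0.0253 to 5.57. The interval at odd for the pooled list, from 3.45 to 15.8, also included the arm mean.

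**Figure D3:**
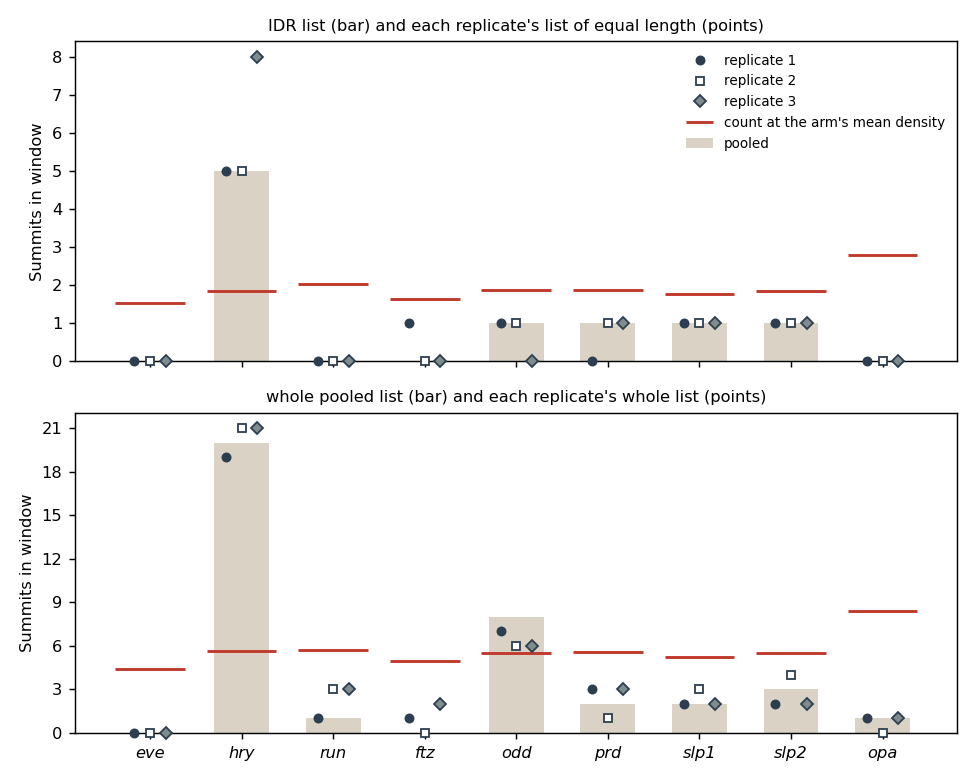
Summits per window for each gene. Bars are the pooled lists, symbols the 3 replicates and red lines the number at the mean density of the gene's arm, with the IDR list and replicate lists of equal length above and the whole lists below. hry lies above its red line in every list, eve at 0 in every list, and odd above its line in the lower panel and below it in the upper one.

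slp1 (FBgn0003430, chr2L:3825675-3827099) and slp2 (FBgn0004567, chr2L:3836840-3839185) encode a pair of forkhead factors that arose by duplication and share regulatory sequence. Their windows overlap, and both held the same single IDR peak at chr2L:3832328-3832676, in the intergenic stretch between the genes. Its summit lay 6845 bp downstream of the slp1 start site and 4320 bp upstream of that of slp2. At rank 571, with a signal of 1375.9, it was the strongest peak of the pair-rule windows, and it ranked 740, 481 and 578 in the replicates. A weaker summit 6197 bp downstream of the slp1 start site, at pooled rank 12055, had replicate ranks of 13231, 14536 and 12493. The replicates' whole lists held 2, 3 and 2 summits in the slp1 window and 2, 4 and 2 in that of slp2. Neither gene had a promoter peak. One IDR summit per window was 0.566 and 0.543 times the arm mean for slp1 and slp2, and the count of 1 has an interval from 0.0253 to 5.57, which includes the 1.77 and 1.84 at the arm mean.

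prd (FBgn0003145, chr2L:12082995-12085827) encodes a factor with a paired domain and a homeodomain, the founding member of the Pax group. The 1 IDR peak in its window, at chr2L:12075913-12076336 with a signal of 219.9 and rank 9057, lay 9253 bp from the nearest prd start site but 25 bp from that of CG14947. It ranked 11323, 8658 and 9339 in the replicates, whose whole lists had 3, 1 and 3 summits in the window. The window held 1 other summit of the pooled list, at rank 22728, which was also nearer to CG14947. Every summit of the pooled list in the prd window thus had CG14947 as its nearest gene.

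opa (FBgn0003002, chr3R:4852813-4869979) is the longest of the 9 genes, and its window of 37.2 kb was the widest. It held no IDR summit, where the arm mean gave 2.78, and 1 summit of the pooled list, where the arm mean gave 8.38 and the interval of the count reached 5.57. That summit had rank 26140 and lay nearer to the start site of laf than to that of opa. The replicates' whole lists held 1, 0 and 1 summits, at ranks 24004 and 27228, and the nearest IDR summit was 33495 bp from the opa start site.

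The 9 windows merged into 8 separate stretches of 209.6 kb in all, since those of slp1 and slp2 overlap. Their 8 IDR summits were 0.49 times the 16.3 that the arm means give, with an exact 95% Poisson interval from 0.211 to 0.965 for counting error only. The replicates' lists of equal length gave 8, 8 and 10 summits and folds of 0.489, 0.49 and 0.614, a mean of 0.531 ± 0.0717 (SD, n = 3). Leaving out hry was an alternative chosen after the data were seen. Because hry had the highest density of the members, the fold had to fall without it, so the value shows only how far the total rested on hry. The other members held 3 summits, 0.207 times the arm mean with an interval from 0.0427 to 0.605, and the replicates gave 0.184 ± 0.0395 (SD, n = 3). In the whole pooled list the windows held 35 summits, 0.723 times the arm mean, and 0.35 times without hry. The density thus lay below the arm mean in every replicate, while its size rested on hry and on the width of the window. With 5 kb to each side the fold was 0.396, and with 20 kb it was 0.694, with 20 summits of which 13 were at hry. The gene bodies alone held 0 summits, but the hry promoter summit lay 1 bp outside the gene and its peak reached into it.

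**Figure D4:**
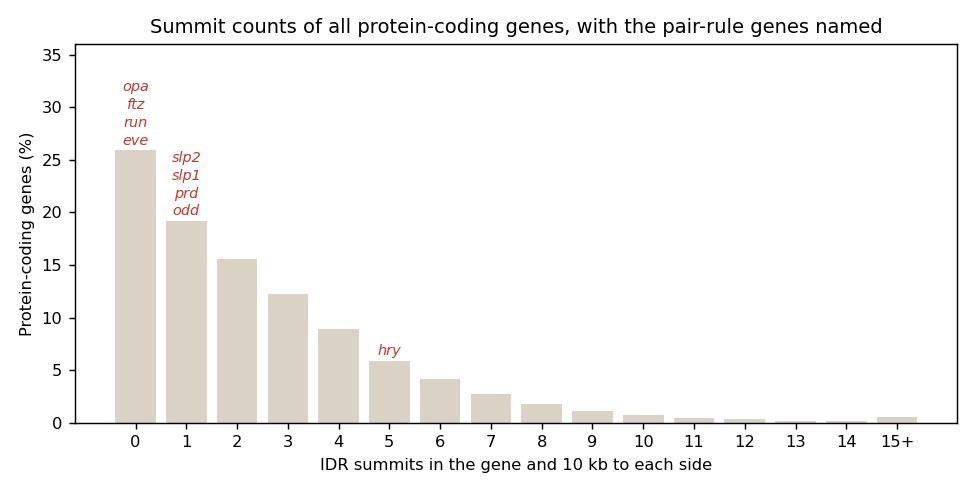
Number of IDR summits in the gene and 10 kb to each side, as the percentage of 13945 protein-coding genes with each number. The pair-rule genes are named above the bars of their own counts. Of the 9, 4 stand at 0 with 25.9% of all genes, 4 at 1 with 19.2%, and hry at 5.

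The median member had 1 IDR summit in its window, against 2 for all protein-coding genes, and the median fold over the arm mean was 0.531 against 1.04. The nearest IDR summit lay at a median of 9253 bp from a start site, with a range from 1 to 39137 bp, against 4417 bp for all protein-coding genes and 4817 bp for those no longer than opa. The replicates' lists gave medians of 8070, 9221 and 17461 bp for the members. The order by IDR count was hry, then slp1, slp2, odd and prd at 1 each, then eve, ftz, run and opa at 0. The intervals of 0 and of 1 overlap with each other and with that of hry, so at these counts no neighbours in the order can be told apart.

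Of the 8 summits, 5 had a partner within 100 bp among the 10160 strongest peaks of every replicate, against 64.7% of all IDR summits. These were the slp1 to slp2 summit and all hry summits but the weakest. In the replicates' whole lists all 8 had partners, against 88.8% of all IDR summits. By reciprocal overlap of at least 50% of the peaks, 1 of the 8 was matched in all 3 replicates, against 55.8% of all IDR peaks. Of the 8 peaks, 62.5% were narrower than the most common width of 424 bp, against 34.3% of all IDR peaks.

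Motifs were counted at the 8 summits beside all IDR summits, and 8 summits are too few to tell most of these shares apart. The Exd-Lab site, read as TGATTGAT or TGATGGAT on either strand, was within 100 bp of 0 of the 8 and of 3.34% of all 10160 IDR summits. The windows held between 1 and 4 such words each and, merged, 20 in all, where the arm means give 22.8, and none lay within 100 bp of an IDR summit. Of the 27 summits that were in the pooled list but not in the IDR list, 2 had one within 100 bp, both downstream of hry, 10219 and 10964 bp from its nearer start site, against 2.99% of all 19840 such summits. The promoter summit of odd at rank 19240 had CAGGTAG within 100 bp. The homeodomain core TAATTA was found at 1 summit, against 14.7% of all. GATA words (AGATAA or AGATAG, or either with T as its first base) were found at 2, against 40.3%. CAGGTAG of Zelda (0.866% of all IDR summits), GAGAGAG of GAGA factor (4.91%), TATCGATA of DRE (1.98%), AACCACA of Runx factors (2.52%) and GGATTA of Bicoid (5.49%) were found at none. The CAGGTAG word of the hry promoter lies inside the promoter peak but over 100 bp from its summit, and within 200 bp 1 of the 8 summits had the word, against 1.93% of all. None of the 9 promoters held an Exd-Lab, homeodomain core, GAGA factor, DRE, Runx or Bicoid word, and ftz alone held a GATA word, against 46.7% of all promoters. The GC content within 100 bp of the 8 summits had a median of 49.3%, from 26.4% at the upstream hry site to 57.2% at its weakest, against 37.8% for all IDR summits. The part of base composition in the motif counts was not tested.

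The genes that act before, after and with the pair-rule genes were counted in the same windows. Of all protein-coding genes, 74.1% had an IDR summit in such a window and 25.5% a promoter peak. Of 12 maternal and gap genes, 8 had an IDR summit (66.7%) and 3 a promoter peak (25%). Their median fold over the arm mean was 0.617. cad, a posterior homeodomain factor, and bcd, the anterior morphogen, had 4 summits each, at 1.5 and 2.26 times the arm mean, and btd, a head gap gene, had 3. Of the 12, 3 (the gap genes Kr, gt and hkb) had no summit of the pooled list, against 11.9% of all protein-coding genes. The same was true of 2 of the 9 pair-rule genes and 2 of the 12 segment polarity genes.

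Of 12 segment polarity genes, 9 had an IDR summit (75%) and 3 a promoter peak (25%), with a median fold of 0.486. Both shares were close to those of all protein-coding genes, 74.1% and 25.5%. nkd, a Wingless pathway antagonist, had 16 summits and ptc, the Hedgehog receptor, had 10, at 3.29 and 3.92 times the arm mean. smo, the Hedgehog signal transducer, had 3. en, a classic target of pair-rule factors, had none, and 7 summits of the pooled list.

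Of 10 regulators and cofactors of pair-rule genes, all had an IDR summit in the window (74.1% of all protein-coding genes). A promoter peak was found at 6 (25.5% of all protein-coding genes), and the median fold was 1.93. ftz-f1, whose product is the nuclear receptor partner of Ftz, had 13 summits, lola, which encodes zinc finger factors, had 12 and Stat92E, which acts on stripes of eve, had 10. Their folds were 2.34, 2.06 and 3.61. gro, which encodes the corepressor of hry, had 5 summits at 2.37 times the arm mean. These genes had a median length of 17036.5 bp, against 2533 bp for the pair-rule genes, and the lists were described without a test.

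**Figure D5:**
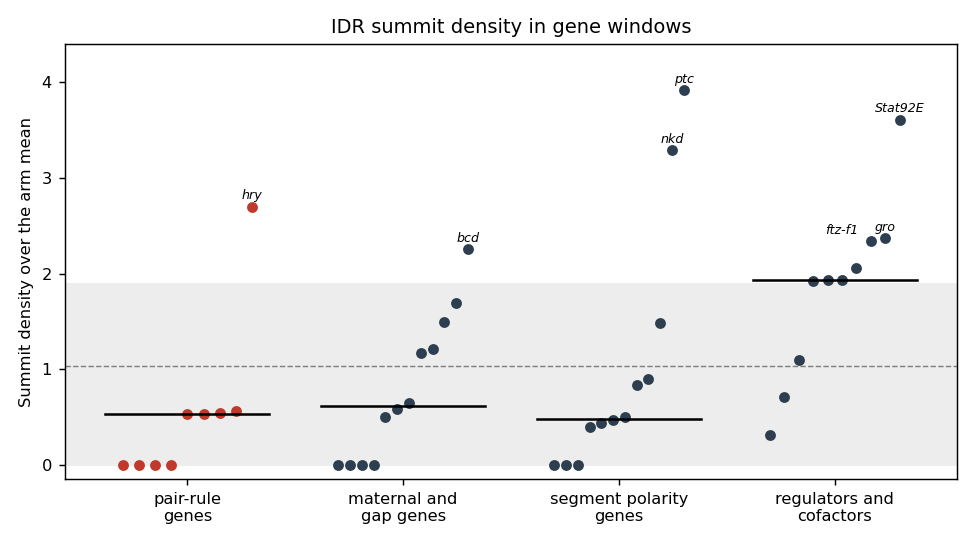
IDR summit density in each gene's window over the mean density of its arm. Points are genes, black bars medians of each list, the dashed line the median of all protein-coding genes (1.04) and the grey band their quartiles, from 0 to 1.89. Of the pair-rule genes, hry at 2.7 is above the band, and the other 8 are below the dashed line.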

How the data were processed

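The labels give sonicated fragments of 200 to 800 bp. According to the notes deposited with the files, a replicate's peak list came from its own alignment and a control that the 3 replicates share, and the pooled list from the 3 alignments together with that control. The peak signal is the authors' deposited value and served only for ranks within a list; aligner, peak caller and IDR cutoff were not given in the sources used here. No interval with its signal occurred in 2 replicates' lists (0 shared), so the replicates were counted separately. The dm3 lists were not used here.

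Summits were counted in each gene and 10 kb to each side, with genes from Ensembl release 115 and sequence from NCBI Release 6, the dm6 coordinate system. All 9 members matched by symbol. Analyses used Python 3.11.15, numpy 2.4.6, pandas 2.3.3, scipy 1.17.1 and matplotlib 3.10.9. Window counts differed from bedtools 2.31.1 for 0 of 13945 genes, and planted counts were recovered in 8 of 8 windows in a test on simulated data. The members, lists and motifs were chosen with earlier results of these data known, and there is 1 group, so no test was run. Named genes were the members, the gene nearest each IDR summit, at most 3 genes of each other list by number of summits and then signal, and the 3 nearest to hry in promoter peak ranks. en, gro, Kr, gt, hkb, TER94, CG12134 and laf were named after their values were seen. The planned motif counts were those at IDR summits, and the count over promoters was added to them. Alternatives changed the flank, the list, the start site window, the matching rule, the motif window and each replicate in turn.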

Additional observations from a re-analysis of the deposited data

How the results depend on the processing

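The counts depended most on the flank and the list. With 5 kb flanks the windows held 4 IDR summits at 0.396 times the arm mean, in 2 members (58.8% of all genes had one). With 20 kb flanks they held 20 at 0.694 times, in 7 members (88.3% of all genes). Of these 20 summits, 14 were found in all 3 replicates, against 64.7% of all IDR summits. With no flank there were 0 summits, 0 members with one, 0 found in all replicates and a fold of 0 (19.3% of all genes had a summit). The hry promoter summit lay 1 bp outside the gene. The 5080 strongest IDR peaks gave 5 summits, 0.611 times the arm mean, 3 members and a median distance of 18282 bp (7806 bp for all genes). The whole pooled list gave 35 summits, 0.723 times, a median distance of 6197 bp (1691 bp for all genes) and 2 members with a promoter peak, odd being the second. No share of all genes is given here for these 3 members and 2 promoter peaks. Both counts also change with the length of the list, so they cannot be read as a trait of the pair-rule genes. Without hry, an alternative chosen after seeing the data, there were 3 summits at 0.207 times. The number of summits found in all 3 replicates was 1 by reciprocal overlap (55.8% of all IDR peaks) and 8 in the whole replicate lists (88.8% of all). Within 50 bp the homeodomain core was at 0 summits, and within 200 bp CAGGTAG was at 1. Each replicate was left out in turn, but the IDR list was not remade. The means over the remaining replicates' lists of equal length were 8 to 9 summits and folds of 0.489 to 0.552. Both remaining lists had a summit at 3 to 4 members and a promoter peak at 1. Of the IDR summits in the windows, 5 to 6 were found in both. The 3 came without replicate 2, where odd and prd each lacked a summit in 1 of the other lists. No share of all genes or of all IDR summits under this rule is given here. The counts from leaving out a replicate therefore cannot be read as a trait of the pair-rule genes. The cause of these changes was not tested. No paired analysis was possible because all samples form 1 group. Read depth is unknown, and counts of 0 or 1 per window limit what can be told apart.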
